A study of Mus musculus with 12 samples.

Results

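Transcription factors bind short DNA elements and set which genes a cell transcribes, and the liver depends on a small number of their families. Hepatocyte identity rests on C/EBP, Hnf, FoxA and Onecut factors, bile duct cells depend on Sox9, nuclear receptors read bile acids, thyroid hormone and retinoids, and the Stat, Irf and Smad families carry cytokine, interferon and TGF-beta signals to the nucleus. The genes described here were taken by their symbols. They were all symbols made of Klf, Sox, Irf, Stat, Smad, Tead, Gata, Onecut, Sall or Hnf and a digit, Fox with a letter and a digit, Cebp with a letter, Nr with a digit, a letter and a digit, or Rxr, Rar or Thr with 1 letter, with Klf6 left out. This gave 72 of the 5378 gene symbols in the table, in 13 families. The letters also caught 5 genes that are not factors of these families. Irf2bp1, Irf2bp2 and Irf2bpl are Irf2-binding proteins or like them, Nr2c2ap is a receptor-associated protein, and Cebpz lacks the leucine zipper of C/EBP factors. The remaining 67 symbols are factors, as the rule intends.

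The study compared livers of male C57BL/6 mice aged 12 weeks with cholestatic fibrosis, produced by tying off the bile duct (bile duct ligation, BDL), with livers of normal mice of the same sex, strain and age. The libraries hold RNA fragments pulled down with an antibody to N6-methyladenosine (m6A, a methyl mark on mRNA), 3 from BDL and 3 from control livers. Reads in m6A peaks numbered 20540863, 35691860 and 26690519 in the BDL libraries and 15254737, 19251404 and 19378332 in the control libraries. Input libraries were not analysed here, so the amount of a transcript and its methylation cannot be told apart. Nor can more cells of a type and more RNA per cell in these whole livers. The labels do not say that each library came from a separate mouse, so p-values measure the spread between these libraries, which may be technical.

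Cell type markers moved with BDL, and their part in the results below was not tested. Over all genes, 8.2% rose and 6.55% fell in the test used below. The summed level of 7 tested cholangiocyte (bile duct) markers was 1836 to 2933 CPM in BDL livers and 463 to 585 CPM in control livers, where CPM is normalised counts per 1000000 reads in peaks. Of these markers, 3 rose (Cldn4, Ehf and Cd24a), none fell, and Anxa4 was listed at 0 in all 6 libraries. Cldn4 carried much of the BDL sum, with 1211 ± 286 CPM in BDL and 11.3 ± 8.65 CPM in control. Most of the control sum came from another marker, which did not pass. The list holds Sox9, which is also among the genes described here. Of 6 macrophage markers, 4 rose and none fell, with sums of 4740 to 5752 CPM in BDL livers and 1501 to 2536 CPM in control livers. Cd5l and Cd14 carried much of those sums, with 2777 ± 106 and 2219 ± 515 CPM in BDL and 1490 ± 557 and 246 ± 210 CPM in control. Clec4f went the other way, with 139.5 ± 35.8 CPM in BDL and 211 ± 35.8 CPM in control, and did not pass (adjusted p = 0.147). Of 8 hepatocyte markers, 3 fell (Apoa2, Apob and Ttr) and none rose, with sums of 9890 to 13510 CPM in BDL livers and 15990 to 19950 CPM in control livers. Apob and Ttr carried much of that sum, with 5897 ± 823 and 1941 ± 805 CPM in BDL and 8851 ± 972 and 4975 ± 1359 CPM in control, while Alb averaged 98.0 ± 44.6 CPM in BDL and 119 ± 50.6 CPM in control, Tat 46.3 ± 26.2 CPM in BDL and 46.4 ± 25.1 CPM in control, and Fgb 17.0 ± 12.6 CPM in BDL and 19.3 ± 18.4 CPM in control (SD, n = 3 each). Apoa1 averaged 1372 ± 40.1 CPM in BDL and 1639 ± 135 CPM in control, and did not pass. G6pc, the 1 hepatocyte marker with a log2 change above 0, averaged 1419 ± 447 CPM in BDL and 1311 ± 896 CPM in control. It did not pass. Of 4 endothelial markers none passed, and of 2 stellate cell or fibroblast markers 1 rose (Pdgfra). Of 2 lymphocyte markers 1 rose (Il2rb), which was listed at 0 in all 3 control libraries, and the 1 neutrophil marker tested did not pass. Apob, Ttr, Cd5l, Cx3cr1, Pdgfra and Il2rb lost their calls in 2 to 5 of the 6 fits without 1 library.

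Of the 72 genes, 65 had at least 1 peak annotated to them alone, and reads were summed over those peaks. The filter on low counts kept 64, and it dropped Nr3c1, the glucocorticoid receptor, whose only such peak (50 bases wide) was listed at 0 in all 6 libraries. Cebpb, Foxq1, Hnf4a and Irf2bp2 each had 1 further peak shared with another gene, left out of the sums. A gene, or a peak in the test of peaks below, could pass the filter through 1 group alone. By edgeR's quasi-likelihood test with Benjamini-Hochberg adjustment over all 4306 genes tested, 10 of the 64 genes changed, 5 higher and 5 lower in BDL. That is 15.6%, next to 14.7% of all genes tested. Higher in BDL were Foxj1, Sox4, Cebpd, Gata6 and Klf13, next to 8.2% of all genes. The genes lower in BDL, next to 6.55% of all genes, included Cebpa, Thrb, Stat2 and Irf2bp1. Of the 60 tested genes that are factors, 9 changed. The BDL and control values did not overlap for 23 of the 64 genes (35.9%), 14 above and 9 below control, next to 38.9% of all genes. The median log2 change was 0.16 over the 64 genes and 0.03 over all genes. By these shares the families as a whole stood near the rest of the table, and the changes lay in single genes. Without BDL replicate 1, 2 or 3 the count of called family genes was 4, 5 and 5. It was 7 without control replicate 2 or 3. Over all genes the count went from 635 to 375, 259 and 223 without BDL replicate 1, 2 and 3. It was 433 and 622 over all genes without control replicate 2 and 3.

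**Figure D1:**
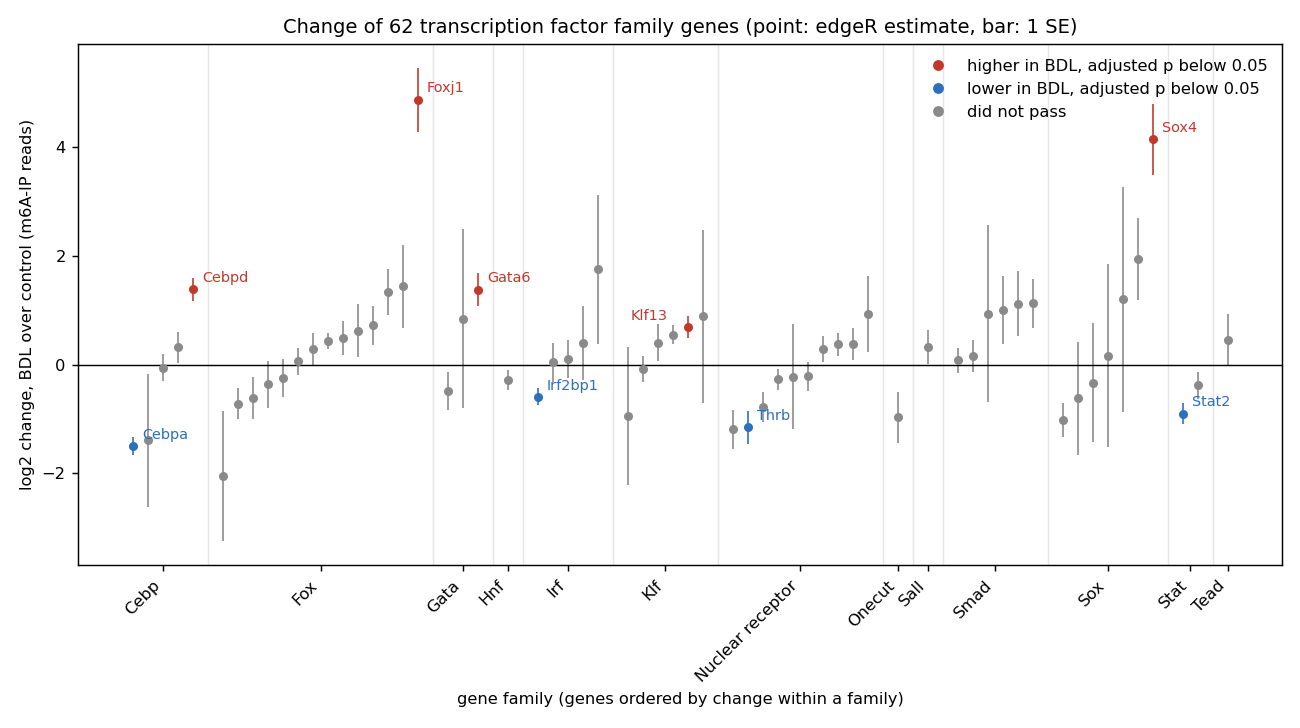
Log2 change in m6A-IP reads (BDL over control, edgeR estimate, vertical axis) of 62 of the tested genes, grouped by family along the horizontal axis, with a bar of 1 SE. The 5 genes higher in BDL (red) and 4 lower in BDL (blue) are named, and the genes in grey did not pass the adjusted threshold of 0.05.

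The C/EBP family held both a fall and a rise. Cebpa, a leucine zipper factor that maintains the differentiated hepatocyte, had 635, 684 and 502 CPM in the BDL libraries, against 1676, 1873 and 1589 CPM in the control libraries. All 3 BDL values lay below all 3 control values. The log2 change was -1.50 (SE 0.17, adjusted p = 9.54e-04), or 2.82 times lower in BDL. Cebpd, an acute phase member of the same family, had 762, 792 and 766 CPM in the BDL libraries, against 310, 210 and 367 CPM in the control libraries. The BDL values were close to each other and all above control. Cebpd was 2.62 times higher in BDL (log2 change 1.39, SE 0.21, adjusted p = 0.00403).

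Cebpb, the C/EBP factor of inflammation and liver regeneration, had the most reads per length of the family, with 16520 CPM per kilobase of peak over all libraries. It averaged 4581 ± 1060 CPM in BDL and 3678 ± 1538 CPM in control (SD, n = 3 each). The groups overlapped and the adjusted p was 0.524. Cebpg, a partner that lacks a strong activation domain of its own, averaged 88.6 ± 6.33 CPM in BDL and 92.1 ± 21.4 CPM in control, with an adjusted p of 0.908. Cebpz, which is not a C/EBP factor, had 240, 564 and 2 reads in BDL and 364, 330 and 321 reads in control (adjusted p = 0.509).

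The make-up of C/EBP reads within a library needs no scaling between libraries. It was compared after the values had been seen, and it is a description with no test. Cebpa held 8.84%, 13.3% and 8.64% of the reads of the 4 C/EBP factors in the BDL libraries, against 34.0%, 38.0% and 21.3% in the control libraries. Cebpd held 10.6%, 15.4% and 13.2% in the BDL libraries, against 6.29%, 4.26% and 4.91% in the control libraries. Reads of Cebpd divided by reads of Cebpa came to 1.20, 1.16 and 1.52 in the BDL libraries, against 0.185, 0.112 and 0.231 in the control libraries. In each BDL library Cebpd had more reads than Cebpa, and in each control library it had fewer.

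**Figure D2:**
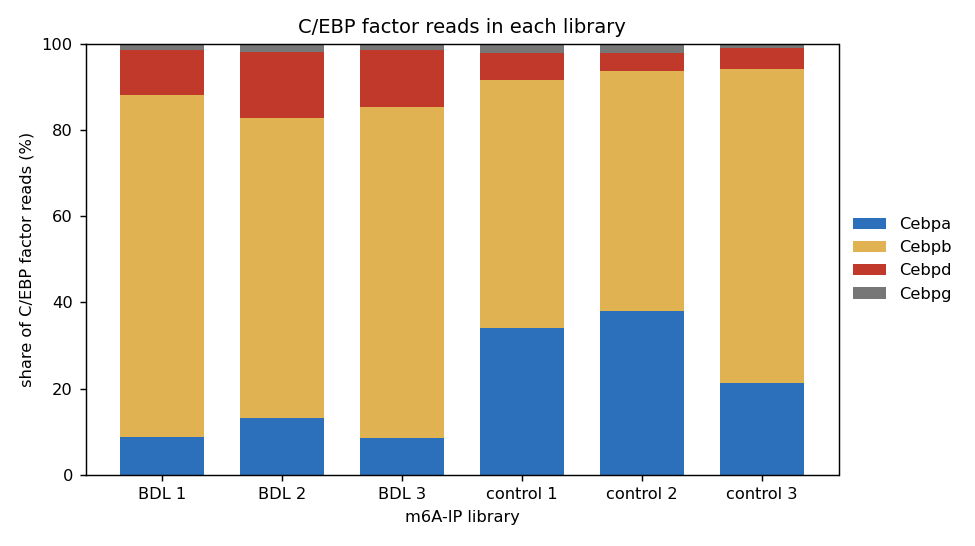
Share of the reads of the 4 C/EBP factors (vertical axis, percent) held by each factor in each of the 6 m6A-IP libraries (horizontal axis, BDL left of control). The Cebpa share is 8.64% to 13.3% in BDL libraries and 21.3% to 38.0% in control libraries, and Cebpb holds the largest share in all 6.

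The RefSeq promoter window of Cebpa, from 250 bases before to 50 after the gene start, is shown because Cebpa had the smallest adjusted p of the 64 genes. It lies on the plus strand of GRCm38.p6 at chr7:35119043-35119342. Capitals in this and the other windows shown mark 6 elements on either strand: AP-1 (TGANTCA), C/EBP (TTGCNNAA), STAT (TTCNNNGAA), the interferon-stimulated response element (GAAA, any 2 bases, GAAA), the CCAAT box and the TATA box (TATAAA).
Cebpa: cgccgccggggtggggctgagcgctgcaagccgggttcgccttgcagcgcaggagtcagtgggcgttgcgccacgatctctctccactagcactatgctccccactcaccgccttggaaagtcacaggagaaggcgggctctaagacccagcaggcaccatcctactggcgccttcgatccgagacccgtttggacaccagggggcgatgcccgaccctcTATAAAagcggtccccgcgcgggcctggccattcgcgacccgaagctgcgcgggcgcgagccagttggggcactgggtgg
The marked letters are a TATA box 30 bases before the gene start, a motif found in 13.6% of all 32851 windows, and no other of the 6 elements is in this window. A match is a description of the letters and not a bound site.

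The Hnf family is known for switching on hepatocyte and bile duct genes. Hnf4a, a receptor-type factor central to hepatocyte identity, averaged 1212 ± 65.9 CPM in BDL and 1476 ± 335 CPM in control, with an adjusted p of 0.371. Its groups overlapped, and at 4886 CPM per kilobase it was the family's highest.

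Onecut factors act with Hnf factors in liver and bile duct development. Onecut2 averaged 18.2 ± 5.83 CPM in BDL and 35.6 ± 15.7 CPM in control (adjusted p = 0.227). Onecut1 shared both of its peaks with an unnamed gene. The stronger peak had 14632, 44722 and 21988 reads in the BDL libraries, against 69615, 91146 and 12138 reads in the control libraries. In CPM these were 657, 1122 and 710 in the BDL libraries, against 5068, 5494 and 684 in the control libraries. Control replicate 3 stood apart from the other control libraries and lay among the BDL values, and the adjusted p was 0.0805.

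Of the 14 Fox genes, which encode forkhead factors, 1 rose and none fell. Foxj1, known as the master regulator of motile cilia, had 139, 128 and 296 CPM in the BDL libraries, against 4.07, 3.39 and 11.7 CPM in the control libraries. Every BDL library was far above every control library, and the spread among the BDL libraries came from replicate 3. The log2 change was 4.87 (SE 0.59, adjusted p = 0.00141), the highest of the 64 genes. Foxo1, an insulin-regulated factor of gluconeogenesis and the family's highest at 841 CPM per kilobase, averaged 869 ± 80.9 CPM in BDL and 644 ± 51.0 CPM in control. Its groups did not overlap, but the adjusted p was 0.0946. The related Foxo3 had an adjusted p of 0.602.

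The pioneer factors Foxa1 and Foxa3, which open chromatin at hepatocyte genes, had log2 changes of -0.36 (SE 0.43) and -0.72 (SE 0.29) and did not pass. Foxa3 averaged 47.1 ± 10.5 CPM in BDL and 77.7 ± 12.8 CPM in control, without overlap (adjusted p = 0.139). Foxs1 averaged 44.1 ± 3.96 CPM in BDL and 17.6 ± 7.77 CPM in control, also without overlap (adjusted p = 0.0705, and 0.0407 without control replicate 2). The other 8 Fox genes, Foxk1, Foxk2, Foxn2, Foxn3, Foxp1, Foxp2, Foxp4 and Foxq1, had adjusted p-values of 0.245 to 0.907. Foxp2 had the lowest log2 change of the 64 genes, -2.05 (SE 1.19), from 4, 478 and 68 reads in BDL and 291, 235 and 414 reads in control. The BDL libraries lay far apart, and the adjusted p was 0.310.

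Of the 7 tested Sox genes, which encode HMG box factors, 1 rose and none fell. Sox4, which acts with Sox9 in bile duct development, had 45.6, 84.0 and 64.6 CPM in the BDL libraries, against 2.07, 1.63 and 7.26 CPM in the control libraries. The lowest BDL value was several times the highest control value. Sox4 was 17.6 times higher in BDL (log2 change 4.14, SE 0.65, adjusted p = 0.00488). Sox9, a marker of bile duct cells, had 809, 1512 and 1126 reads in the BDL libraries, against 289, 74 and 50 reads in the control libraries. Its groups did not overlap in CPM, but control replicate 1 stood well above the other controls and the adjusted p was 0.126. Without control replicate 1, Sox9 passed (adjusted p = 0.00644).

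Sox5, the family's highest at 1124 CPM per kilobase, averaged 149 ± 27.9 CPM in BDL and 301 ± 122 CPM in control, with an adjusted p of 0.0614 (0.00810 without control replicate 1). The endothelial factors Sox17 and Sox18 and the genes Sox12 and Sox13 were low, with at most 478 reads in any library, and had adjusted p-values of 0.751 to 0.962. Sox15 shared its only peak with Mpdu1 and had no test of its own.

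The RefSeq promoter window of Sox4 is shown because Sox4 rose and 3 of its peaks were listed at 0 in all control libraries. It lies on the minus strand of GRCm38.p6 at chr13:28953650-28953949.
Sox4: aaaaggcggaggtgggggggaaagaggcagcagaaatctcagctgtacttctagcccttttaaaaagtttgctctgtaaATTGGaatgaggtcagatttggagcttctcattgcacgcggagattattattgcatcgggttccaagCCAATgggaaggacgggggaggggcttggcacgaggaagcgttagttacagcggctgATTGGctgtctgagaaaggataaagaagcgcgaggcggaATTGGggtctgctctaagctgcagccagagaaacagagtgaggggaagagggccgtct
The capitals mark CCAAT boxes, read on either strand, at 171, 104, 47 and 8 bases before the gene start. A CCAAT box is in 37.4% of all windows and in 38.7% of the 62 windows of the family genes. None of the other 5 marked elements is in this window.

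Of the 3 Gata genes, which encode zinc finger factors of endoderm and heart development, 1 rose. Gata6 had 323, 352 and 316 CPM in the BDL libraries, against 186, 74.2 and 121 CPM in the control libraries. The BDL values were close to each other and above all control values. The log2 change was 1.38 (SE 0.30, adjusted p = 0.0187), and Gata6 was also the family's highest at 436 CPM per kilobase. The call was lost without BDL replicate 1, 2 or 3, with adjusted p-values of 0.0674, 0.0769 and 0.0727. Gata4, a factor of liver sinusoidal and stellate cells, averaged 55.5 ± 16.7 CPM in BDL and 78.0 ± 25.2 CPM in control (adjusted p = 0.407). Gata5 had at most 194 reads in any library and an adjusted p of 0.786. In a comparison made after the values had been seen, with no test, Gata6 reads divided by Gata4 reads were 7.28, 4.71 and 6.65 in the BDL libraries, against 1.91, 0.854 and 2.45 in the control libraries. These 2 ranges did not overlap.

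Tead1, the DNA-binding partner of the Hippo effector Yap1, averaged 39.3 ± 4.81 CPM in BDL and 28.7 ± 15.1 CPM in control, with an adjusted p of 0.599. Sall1, a zinc finger factor of kidney development, averaged 216 ± 47.9 CPM in BDL and 174 ± 77.1 CPM in control (adjusted p = 0.561). Neither family has another gene here.

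Stat factors carry cytokine and interferon signals from receptors to the nucleus. Stat2, a factor of type I interferon signalling, had 89.4, 107 and 99.0 CPM in the BDL libraries, against 193, 168 and 189 CPM in the control libraries. The groups were well separated, with a log2 change of -0.90 (SE 0.19, adjusted p = 0.0152). Stat6, the factor of interleukin-4 signalling and the family's highest at 732 CPM per kilobase, averaged 127 ± 15.1 CPM in BDL and 166 ± 47.1 CPM in control (adjusted p = 0.371).

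The Stat2 call was lost without BDL replicate 1, 2 or 3, with adjusted p-values of 0.0527, 0.0526 and 0.0622. With library totals alone in place of TMM scaling, a setting that moved the median change of all genes to 0.38, the adjusted p for Stat2 was 0.0942 and its log2 change stayed below 0. Under that setting 8 of the 64 genes were called higher and 1 lower, next to 13.4% and 3.51% of all genes.

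The RefSeq promoter window of Stat2 is shown because Stat2 fell and the window holds an interferon-stimulated response element. It lies on the plus strand of GRCm38.p6 at chr10:128270248-128270547.
Stat2: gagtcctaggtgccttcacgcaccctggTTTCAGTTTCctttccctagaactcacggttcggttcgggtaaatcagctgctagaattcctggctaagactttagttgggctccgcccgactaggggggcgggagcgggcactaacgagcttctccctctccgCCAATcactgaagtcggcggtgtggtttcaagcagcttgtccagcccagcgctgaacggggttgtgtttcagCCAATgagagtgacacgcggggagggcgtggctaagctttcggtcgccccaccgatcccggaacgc
The first run of capitals is an interferon-stimulated response element on the minus strand, 222 bases before the gene start, an element found in 3.44% of all windows and 3.23% of the windows of the family genes. The other capitals are CCAAT boxes at 88 and 16 bases before the gene start.

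Of the Irf genes, which encode interferon regulatory factors and which the letters also match to their partners, none of the 2 tested factors passed. Irf5 averaged 19.0 ± 3.42 CPM in BDL and 14.5 ± 12.2 CPM in control (adjusted p = 0.762). Irf4, a factor of lymphocytes and macrophages, had 210, 1466 and 974 reads in the BDL libraries, against 0, 124 and 273 reads in the control libraries, and the groups overlapped in CPM (adjusted p = 0.458). The partner Irf2bp1, a corepressor and the highest of the group at 1037 CPM per kilobase, had 234, 241 and 269 CPM in the BDL libraries, against 384, 388 and 351 CPM in the control libraries. Its groups did not overlap, and it fell with a log2 change of -0.59 (SE 0.16, adjusted p = 0.0352). The call held in 1 of the 6 fits without 1 library, the one without control replicate 3. It was lost with library totals alone (adjusted p = 0.351), with the replicate number as a block, without BDL replicate 1, 2 or 3 (adjusted p = 0.101, 0.127 and 0.0821) or without control replicate 1 or 2 (0.0698 and 0.0893). Irf2bp2 and Irf2bpl had adjusted p-values of 0.879 and 0.955.

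Irf8, the factor of the macrophage lineage, shared its only peak with Galnt2l. That peak had 70.3, 75.8 and 87.2 CPM in the BDL libraries, against 21.4, 16.8 and 42.6 CPM in the control libraries. The groups did not overlap, and the peak rose in the test of all peaks, with a log2 change of 1.53 (SE 0.39, adjusted p = 0.0498). Whether those reads belong to Irf8 was not tested.

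None of the 6 Smad genes passed, though all 6 had a log2 change above 0, with a median of 0.97, next to 51.2% of all genes above 0 and a median of 0.03. Smads are the messengers of TGF-beta and BMP receptors. Smad1, which carries BMP signals, averaged 87.8 ± 5.18 CPM in BDL and 40.3 ± 24.1 CPM in control. Its groups did not overlap, and the adjusted p was 0.146. The inhibitor Smad6 averaged 17.1 ± 4.58 CPM in BDL and 8.52 ± 0.787 CPM in control, without overlap (adjusted p = 0.338). The inhibitor Smad7 averaged 36.6 ± 14.2 CPM in BDL and 16.8 ± 10.9 CPM in control (adjusted p = 0.270). Smad3, the factor of TGF-beta in fibrosis, averaged 49.5 ± 5.82 CPM in BDL and 44.4 ± 3.30 CPM in control (adjusted p = 0.773). The common partner Smad4, the family's highest at 583 CPM per kilobase, averaged 105 ± 14.3 CPM in BDL and 99.3 ± 17.9 CPM in control (adjusted p = 0.868). Smad9 had at most 373 reads in any library.

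Of the 6 Klf genes, which encode zinc finger factors that bind GC-rich elements, 1 rose. Klf13 had 504, 384 and 446 CPM in the BDL libraries, against 309, 215 and 305 CPM in the control libraries. The groups did not overlap, and the log2 change was 0.69 (SE 0.20, adjusted p = 0.0476). It passed in none of the 6 fits without 1 library, with adjusted p-values of 0.0508 to 0.158, nor with its strongest peak alone. Nor did it pass with peaks of 75 bases or less left out. The Klf13 peaks are 225, 100 and 275 bases wide, so that last setting removed none of its own reads. Klf2, a flow-responsive factor of endothelium and the family's highest at 1657 CPM per kilobase, averaged 788 ± 116 CPM in BDL and 538 ± 54.6 CPM in control, without overlap, and its adjusted p was 0.0588. Klf9, a target of glucocorticoid and thyroid hormone, averaged 396 ± 97.8 CPM in BDL and 418 ± 96.3 CPM in control (adjusted p = 0.864). Klf1, Klf3 and Klf16 had adjusted p-values of 0.487 to 0.768. A GC box (GGGCGG, either strand) holds the letters Klf factors are known to bind. It was in 62.9% of the 62 promoter windows of the family genes, which belong to 49 symbols, and in 35.7% of all windows. This is a description with no test. The GC box was 1 of 11 elements searched, and others were rarer in the family windows. The Gata element (AGATAA) was in 3.23% of them against 11.2% of all windows, and AP-1 in 3.23% against 7.81%.

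Of the 10 tested nuclear receptors, 1 fell and none rose. Thrb, the main thyroid hormone receptor of hepatocytes, had 44.2, 34.3 and 62.9 CPM in the BDL libraries, against 81.9, 128 and 105 CPM in the control libraries. The groups did not overlap, with a log2 change of -1.15 (SE 0.31, adjusted p = 0.0366). The call was lost without BDL replicate 1 or 2 (adjusted p = 0.112 and 0.125) and without control replicate 2 or 3 (adjusted p = 0.123 and 0.0728). With its strongest peak alone the adjusted p was 0.305, the highest for Thrb under any alternative, and the call was also lost with library totals alone and with the replicate number as a block. Rxra, the shared partner of many receptors and the family's highest at 3926 CPM per kilobase, averaged 2479 ± 571 CPM in BDL and 2986 ± 341 CPM in control (adjusted p = 0.410).

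Nr2f2, a receptor-like factor of veins and mesenchyme, had 1637, 6574 and 1988 reads in the BDL libraries, against 3301, 4313 and 3158 reads in the control libraries. BDL replicate 2 had the most reads of the 6, but in CPM the groups did not overlap, and the log2 change was -1.19 (SE 0.36, adjusted p = 0.0565). Without BDL replicate 2, Nr2f2 passed (adjusted p = 0.0148). Nr5a2, a receptor of bile acid synthesis genes, averaged 85.7 ± 18.2 CPM in BDL and 147 ± 40.5 CPM in control (adjusted p = 0.0944). Nr1i2, the xenobiotic receptor PXR, averaged 136 ± 31.8 CPM in BDL and 104 ± 36.2 CPM in control (adjusted p = 0.460). The clock receptor Nr1d2, the retinoic acid receptor Rara, the immediate early gene Nr4a1, and Nr2f1 and Nr2f6 had adjusted p-values of 0.293 to 0.908. Nr1d1 and Thra, which overlap on opposite strands, share 1 peak, and Nr2c2ap shares both of its peaks with Rfxank, so these 3 had no test of their own.

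**Figure D3:**
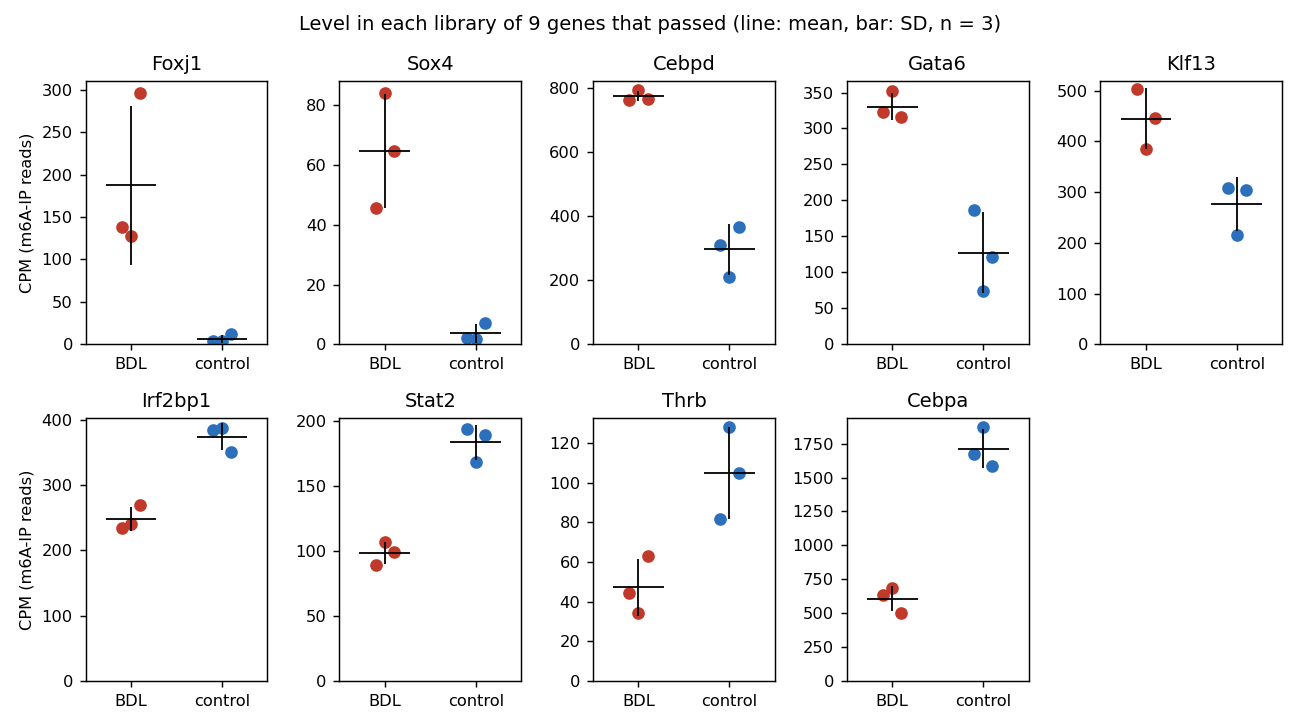
Level in CPM (vertical axis, m6A-IP reads) of 9 genes that passed, in the 3 BDL (red, left) and 3 control (blue, right) libraries, each panel with its own scale from 0, with the mean as a line and the SD as a bar. In each panel the BDL points lie wholly above (first 5 panels) or wholly below (last 4 panels) the control points.

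The 72 genes held 118 distinct peaks, 106 of them annotated to 1 gene alone. Of the 106, 65.1% were in the last 20% of their gene and 12.3% in the first 20%, next to 64.4% and 9.47% of all peaks annotated to 1 gene. The median width was 175 bases, as over all peaks. Of the 65 genes with a peak of their own, 40.0% had at least 2, next to 31.5% of all genes. Place and width of the peaks were thus near those of the whole table. Of 116 peaks tested, 8 rose and 3 fell, together 9.48%, next to 9.16% of all 7083 peaks tested. The called peaks belonged to Foxj1 and Sox4 (2 each), Cebpd, Gata6, Klf13 and Irf8 (higher), and Cebpa (2) and Stat2 (lower).

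Peak coordinates are given counting from 1 in the build of the deposited table, which is not named. Both Cebpa peaks fell. The stronger, at chr7:35120343-35120542, averaged 474 ± 71.9 CPM in BDL and 1344 ± 117 CPM in control. The weaker, at chr7:35120743-35120917, averaged 138 ± 26.0 CPM in BDL and 358 ± 57.5 CPM in control. Their log2 changes, -1.50 (SE 0.17) and -1.37 (SE 0.21), lay within 1 SE of each other.

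Peaks of 1 gene that rose differed in their estimates of change, but with all 6 libraries no family gene passed the test of such differences. The Klf13 peak at chr7:63890851-63891125 averaged 34.2 ± 10.7 CPM in BDL and 4.88 ± 2.73 CPM in control, with a log2 change of 2.80 (SE 0.58, adjusted p = 0.0266). The strongest Klf13 peak, at chr7:63890326-63890550, averaged 393 ± 55.7 CPM in BDL and 243 ± 42.1 CPM in control, with a log2 change of 0.69 (SE 0.19, adjusted p = 0.0629). The peak between them averaged 20.6 ± 1.45 CPM in BDL and 26.8 ± 12.3 CPM in control, and the groups overlapped. The estimates for the 3 Klf13 peaks thus differed on the log2 scale, but the test of such differences did not pass.

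Sox4 has 5 peaks, and 3 of them were listed at 0 in every control library. The peak at chr13:28951794-28951843 had 86, 243 and 318 reads in the BDL libraries. Its mean BDL level was 35.6 times a floor of 3 reads in each control library (adjusted p = 0.0442). The peak at chr13:28950569-28950643 had 30, 217 and 158 reads in the BDL libraries, and its mean was 20.9 times that floor (adjusted p = 0.0709). Both ratios use the BDL mean and leave out the spread among BDL libraries. Without control reads, both peaks could pass the filter on low counts through BDL alone, so their p-values are no separate support. The ratios also hold only if the zeros are counts. Of the 7460 peaks, 182 were listed at 0 in all 6 libraries, and where such zeros come from was not tested. The strongest Sox4 peak, at chr13:28951294-28951493, averaged 30.7 ± 11.1 CPM in BDL and 2.24 ± 0.727 CPM in control (log2 change 3.77, SE 0.58, adjusted p = 0.00905). Foxj1 rose at both of its peaks, which lie at opposite ends of the gene, with log2 changes of 4.69 (SE 0.65) and 6.68 (SE 1.06). The second of these had 10, 2 and 1 reads in the control libraries.

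**Figure D4:**
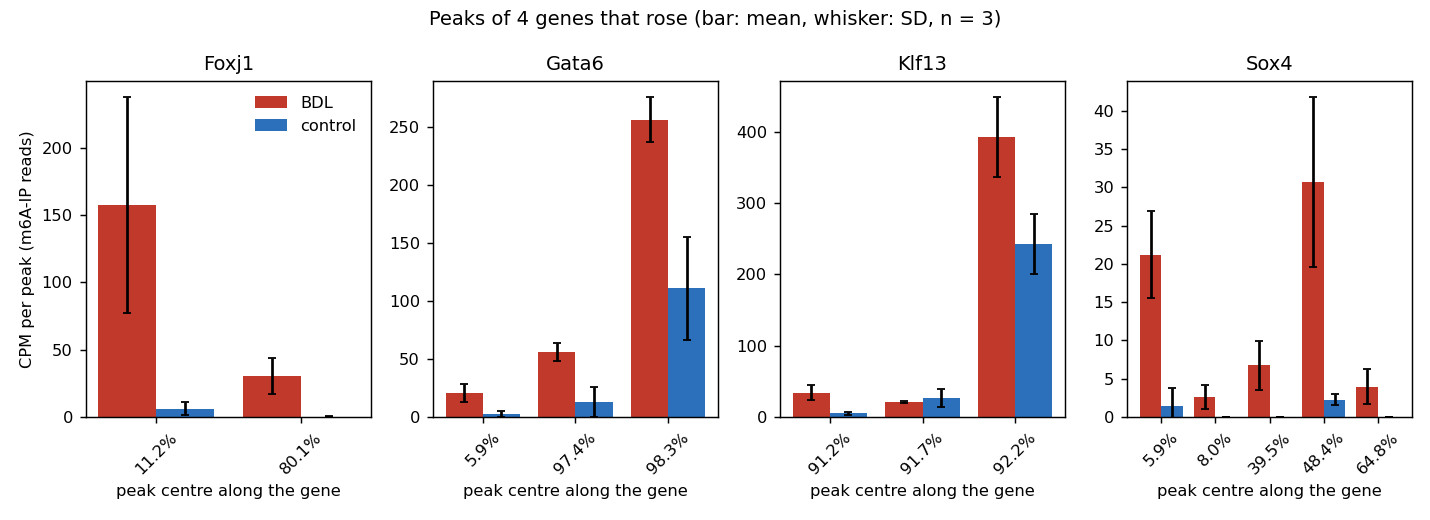
Mean CPM of each peak (vertical axis, m6A-IP reads, bars from 0 with an SD whisker, n = 3) of Foxj1, Gata6, Klf13 and Sox4 in BDL (red) and control (blue) livers, ordered by the place of the peak centre along the gene (horizontal axis, percent). BDL is the higher in every peak except the Klf13 peak in the middle, which averages 20.6 CPM in BDL and 26.8 CPM in control.

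Differences between the peaks of 1 gene were tested with edgeR's diffSpliceDGE. Of the 25 family genes with at least 2 tested peaks none passed, next to 13 of 1288 genes (1.01%) over the table. Unadjusted p-values were below 0.05 for Klf13 (0.00173, adjusted p = 0.0886) and Sox4 (0.00800, adjusted p = 0.219). Without control replicate 3, 1 family gene passed.

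The genes that work with these families were described by lists of pathway genes, whose counts come from the same fit as above, in which 8.2% of all genes were higher and 6.55% lower. Of 9 interferon targets tested, 2 fell and none rose. All 9 had log2 changes below 0, with a median of -0.58, next to 51.2% of all genes above 0 and a median of 0.03. Some lay close to 0, such as Ifit3 (-0.01, SE 0.27) and Ifit2 (-0.05, SE 0.39). With library totals alone the median of all genes was 0.38, so signs this close to 0 rest on the scaling. Iigp1, an interferon-inducible GTPase, averaged 2861 ± 439 CPM in BDL and 7919 ± 1303 CPM in control (log2 change -1.47, SE 0.18, adjusted p = 0.00161). Isg15, a ubiquitin-like modifier, averaged 44.4 ± 15.0 CPM in BDL and 131 ± 38.7 CPM in control (adjusted p = 0.0190, but at most 0.0660 and not past the threshold without BDL replicate 1 or 2 or control replicate 2). These values stand beside the fall of Stat2 as measurements of the same libraries.

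Of 17 genes of JAK-STAT signalling, 2 rose and 1 fell. Ifngr1, a chain of the interferon-gamma receptor, averaged 2146 ± 265 CPM in BDL and 711 ± 166 CPM in control (adjusted p = 0.00160). Socs2, an inhibitor of growth hormone signalling, had 69, 165 and 149 reads in the BDL libraries and was listed at 0 in every control library (adjusted p = 0.0459, and up to 0.140, past the threshold in none of the 6 fits without 1 library). Lifr, a chain of the leukaemia inhibitory factor receptor, averaged 30.2 ± 14.8 CPM in BDL and 110 ± 39.1 CPM in control (adjusted p = 0.0253). The Lifr call was lost without any 1 BDL library or without control replicate 2, with adjusted p-values up to 0.0905.

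Of 19 genes of TGF-beta and BMP signalling, 2 rose (Id3 and Smurf1) and 1 fell (Id2), with a median log2 change of 0.08. Id2 and Id3 encode inhibitors of helix-loop-helix factors, and they moved in opposite directions. Id3 averaged 523 ± 154 CPM in BDL and 291 ± 20.7 CPM in control (adjusted p = 0.0358), and Id2 averaged 649 ± 85.4 CPM in BDL and 1327 ± 479 CPM in control (adjusted p = 0.0275). In the 6 fits without 1 library these calls were fragile: Id3 passed only without BDL replicate 1, Smurf1 only without control replicate 2, and Id2 only without control replicate 1 or 3, with adjusted p-values of up to 0.151, 0.163 and 0.112 in the others. Of 11 Hippo genes, 1 rose and 1 fell. Ccn2, a matricellular target of Yap1 and Tead factors, averaged 304 ± 87.3 CPM in BDL and 44.0 ± 9.71 CPM in control (log2 change 2.79, SE 0.29, adjusted p = 6.80e-04). Yap1 itself averaged 585 ± 27.9 CPM in BDL and 1064 ± 74.6 CPM in control (adjusted p = 0.00578).

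Receptors that the symbol rule leaves out were read from a list of 4 tested genes. Ppara, the receptor of fatty acid oxidation, fell, with 112 ± 16.2 CPM in BDL and 373 ± 2.07 CPM in control (log2 change -1.73, SE 0.18, adjusted p = 6.80e-04). Rora rose, with 243 ± 71.8 CPM in BDL and 130 ± 18.7 CPM in control (adjusted p = 0.0450), a call that held in 1 of the 6 fits without 1 library, the one without BDL replicate 1, and reached 0.178 in the others. Of 14 receptor coregulators 1 rose, the corepressor Nrip1 (log2 change 0.70, SE 0.16, adjusted p = 0.0208). Its call was lost without BDL replicate 1 or 2 or control replicate 2, with adjusted p-values up to 0.0793. Of 13 receptor target genes 1 fell, the bile acid importer Slc10a1, with 910 ± 227 CPM in BDL and 3137 ± 621 CPM in control (adjusted p = 0.00163). Of 13 liver factors of other families 2 fell. They were Tbx3 (log2 change -2.26, SE 0.31, adjusted p = 0.00250) and Xbp1 (log2 change -1.36, SE 0.23, adjusted p = 0.00596), a factor of secretory cells. None of 4 clock genes, 7 Fox target genes or 7 genes of the m6A machinery passed in edgeR's test, though 1, 1 and 2 of them had an unadjusted p below 0.05. Over the 11 lists 16 of 116 genes passed, 7 higher and 9 lower, next to 14.7% of all genes called, 8.2% higher and 6.55% lower, so the lists together stood near the background.

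How far each call rests on single libraries or settings differed among the genes that passed. Cebpa, Cebpd, Foxj1 and Sox4 passed in each of the 6 fits without 1 library and under each of the other 8 alternatives. Gata6 passed in 3 of those 6 fits and Stat2 in 3, Thrb in 2, Irf2bp1 in 1, and Klf13 in none. None of the 10 called genes turned its sign under any alternative run. With DESeq2 in place of edgeR 15 of the 64 genes passed, next to 19.8% of all genes. They were the 10 that edgeR called, with Foxo1, Foxs1, Klf2, Nr2f2 and Sox5.

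**Figure D5:**
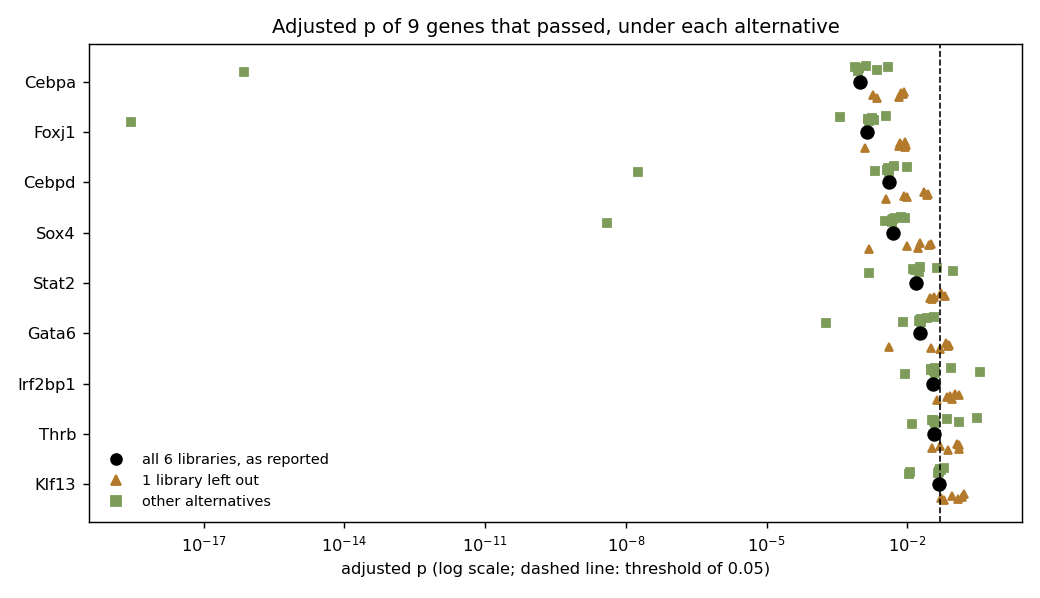
Adjusted p (horizontal axis, log scale, with the threshold of 0.05 as a dashed line) of each of 9 genes with all 6 libraries (black circle), with 1 library left out (brown triangles) and under the other alternatives (green squares). Cebpa, Foxj1, Cebpd and Sox4 lie left of the line at every mark, while Klf13 lies right of it at every triangle.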

How the data were processed

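Per the labels, livers of 6 libraries analysed here gave m6A immunoprecipitated RNA, fragmented and reverse transcribed with random primers. Input libraries were not analysed here. Per the submitters' processing notes bcl2fastq 2.17, fastp, Bowtie2 2.2.8 and HISAT2 were used, without roles. How peaks were called and merged, how reads were counted and with what use of strand, and the build and gene models are steps not given in the sources used here, so overlapping or antisense genes may share reads. Per the file headers the deposited table holds raw read counts of each IP library in 1 set of merged peaks, and RPM values. Each deposited RPM value, a score, came out as the count per 1000000 of the library's reads in distinct peaks, and RPM entered nothing else. A peak of several genes is repeated on each gene's line, so 8649 lines hold 7460 distinct peaks.

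Reads were summed per gene over the 6474 peaks annotated to 1 gene. Genes were filtered with filterByExpr and scaled with TMM. Library sizes were the reads in all distinct peaks, and the TMM factors came from the filtered gene sums, or from the filtered peaks in the test of peaks. Genes were tested with edgeR's quasi-likelihood test (robust), two-sided, BDL over control, Benjamini-Hochberg adjusted, threshold 0.05. Versions were edgeR 4.0.16, DESeq2 1.42.0 and limma 3.58.1 under R 4.3.3. The SE is the log2 change over the square root of F. CPM values are TMM-normalised, as mean ± SD. Depth per library is the total read count in peaks, and libraries number 3 per group, which limits precision. Floors of 3 reads cover counting error only, since the labels name no molecular identifiers. The fit was checked on simulated counts. Promoter windows are RefSeq's, GRCm38.p6, and 49 of the 72 symbols matched.

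The genes, lists and tests were chosen with earlier results of these data known. Named were every gene past the threshold, the highest of each family per kilobase of peak, genes whose peaks differed or that had no reads in a whole group, and up to 4 genes per pathway list with the smallest p. Some genes that the rule names are counted but not reported here. Same-numbered BDL and control libraries correlated in their deviations from the group means at 0.0589, 0.0117 and 0.0233, so numbers were not taken as pairs. Alternatives were each library left out, the replicate block, the strongest peak of each gene, peaks of 75 bases or less left out, a minimum of 50 reads, no filter, library totals in place of TMM, and DESeq2 or its size factors.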

Additional observations from a re-analysis of the deposited data

How the results depend on the processing

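With all 6 libraries 10 of 64 family genes were called. Leaving out 1 library at a time gave 4 to 9 called genes, 5 to 11 called peaks (11 with all libraries), 8 to 16 called pathway list genes (16 with all libraries) and 0 to 1 genes whose peaks differed (0 with all libraries, 1 without control replicate 3). The counts were lowest without a BDL library, where the count over all genes also fell, from 635 to between 223 and 375. DESeq2 called 15 family genes, 27 peaks and 27 pathway list genes. Its count over all genes was also higher, 847 (19.8%) against 635 (14.7%) with edgeR. Its share over all peaks is not given here, so the peak count has no background beside it. With the replicate number as a block, 8 family genes were called, 7 of them among the 10, and 6 peaks. The count over all genes was 415 under that setting. Same-numbered libraries were not taken as pairs. The causes were not tested. With library totals alone the median change of all genes was 0.38, and 9 family genes were called, 8 higher and 1 lower, against 5 higher and 5 lower with TMM. Under that setting 9 uncalled genes turned from below to above 0: Cebpg, Foxa1, Foxn3, Hnf4a, Klf9, Nr2f1, Nr2f6, Rxra and Sox13. The median of the family genes moved to 0.50. The other settings gave 8 to 10 called family genes. Genes with few and uneven reads, such as Sox17 and Gata5, had SEs above 1 on the log2 scale, so small differences in them could not be seen.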

Other observations

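The make-up of other families within each library also differed between the groups, as values that need no scaling between libraries and that were picked after they had been seen, with no test. Sox4 held 17.3%, 28.6% and 25.6% of Sox reads in the BDL libraries, against 0.993%, 0.375% and 1.99% in the control libraries. Sox5 held 64.5%, 54.0% and 46.4% in the BDL libraries, against 80.4%, 93.4% and 89.9% in the control libraries. A share also falls when other members of the family rise, and in CPM the Sox5 groups overlapped (adjusted p = 0.0614). Foxj1 held 7.61%, 7.74% and 15.7% of Fox reads in the BDL libraries, against 0.330%, 0.223% and 0.909% in the control libraries. Foxo1 held close to the same share of Fox reads in both groups, 47.1% to 50.8% in the BDL libraries and 45.7% to 52.6% in the control libraries. Rxra likewise held 69.7% to 76.7% of nuclear receptor reads in the BDL libraries and 72.2% to 76.1% in the control libraries. The largest member of these 2 families was the same in all 6 libraries, as it was for the Sox (Sox5) and C/EBP (Cebpb) factors. The shares of Sox5 and Cebpa were lower in every BDL library than in any control library.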
